A study of Arabidopsis thaliana with 4 samples.

Results

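FSD1, CSD1, CSD2 and CCS encode superoxide dismutases and the chaperone that loads copper into the copper enzymes, and their transcript levels were followed in inflorescences of Arabidopsis thaliana with and without a mutation in XRN4. They are 4 of the 22810 probe sets on the ATH1 array, one probe set per gene, and were picked by name. Written with the array's name before the identifier, they are ATH1.254098_at for FSD1 (AT4G25100), ATH1.264809_at for CSD1 (AT1G08830), ATH1.266165_at for CSD2 (AT2G28190) and ATH1.259511_at for CCS (AT1G12520). The platform annotation used here names CCS and leaves the other 3 probe sets unlisted, so their names are those under which they were picked. They were picked for their course in xrn4-5 against Col-0, with results of these arrays known, so their values in that contrast are a description and not a test.

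Plants carrying xrn4-5, an allele of XRN4 in the Col-0 ecotype (2 arrays), were compared with wild-type Col-0 plants (2 arrays). The nature of the lesion in xrn4-5 is not given in the labels. Mixed-stage inflorescences of both genotypes came from plants grown at 21 °C in long days (16 h light, 8 h dark), with no treatment named. The design asks which transcripts differ in level in xrn4-5 compared with Col-0.

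Superoxide dismutases convert superoxide to hydrogen peroxide and oxygen, and plants hold several that differ in their metal. FSD1 uses iron, and CSD1, mainly in the cytosol, and CSD2, in the chloroplast, use copper and zinc. When copper is scarce, the transcription factor SPL7 is known to raise FSD1 and the precursors of the microRNA miR398, which directs cleavage of CSD1, CSD2 and CCS transcripts, so that the iron enzyme stands in for the copper enzymes. XRN4 digests RNAs that have lost their cap, in the cytoplasm and starting at the 5' end, among them the 3' fragments left after cleavage directed by some microRNAs.

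Median signals of the arrays ran from 240 to 248, on a linear scale that the authors had set to a common level, so the arrays were compared as deposited. No probe set is named here for XRN4, and the labels could not be checked against the mutated gene. Among the markers of the tissue, those of floral organ identity have no named probe set here. Genes of the tapetum and of pollen gave a summed signal of 8453 and 9178 in xrn4-5 tissue, against 10356 and 10088 in Col-0 tissue (5 genes, among them the tapetal genes ATA27 and AMS). ATA27 made up most of this sum, with 5235 and 5505 in xrn4-5 tissue, against 6481 and 5845 in Col-0 tissue. ACT12, the dimmest of the 5, gave 180.5 and 183.8 against 267 and 197.3. The sum therefore says little about the dimmer genes. The summed signal of the leaf photosynthesis genes RCA and PRK was 22481 and 20019 in xrn4-5 tissue, against 23392 and 20359 in Col-0 tissue. BAN, a seed coat gene, gave 409 and 319 in xrn4-5 tissue, against 669.6 and 182 in Col-0 tissue, with a wide gap between the Col-0 arrays. Of all 8 measured markers, 7 had lower estimates in xrn4-5, and BAN a higher one. In limma's test over all probe sets bright enough to be tested, with an adjusted p under 0.05 as the threshold, 0 of the 8 passed, and 0 had an unadjusted p under 0.05. The arrays of the genotypes did not overlap for 4 of the 8, all tapetum or pollen genes lower in xrn4-5. Of all tested probe sets, 18.6% were lower in this way. The part of these cells in the results on the 4 genes was not tested. The arrays measured bulk tissue, so fewer cells of a type and less RNA per cell cannot be told apart.

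The iron enzyme and the copper enzymes differed between the genotypes in opposite directions. FSD1 was several-fold higher in xrn4-5, while CSD1, CSD2 and CCS were each lower in xrn4-5 than in Col-0 when arrays of the same number were set side by side. The difference was large for FSD1 and modest for the other 3.

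FSD1 gave signals of 4824 and 4991 in xrn4-5 arrays 1 and 2, against 887 and 344 in Col-0 arrays 1 and 2. Both xrn4-5 arrays stood far above both Col-0 arrays, and the xrn4-5 arrays were close to each other while the Col-0 arrays were not. The means were 4907 ± 118 in xrn4-5 and 616 ± 384 in Col-0 (SD, n = 2 each). On the scale of log2(signal + 32), where the differences of dim probe sets come out too small, the difference was 3.07, or 8.40-fold. The ratio of xrn4-5 to Col-0 was 5.44 for the arrays numbered 1 and 14.5 for those numbered 2, a gap that lies in Col-0, where array 1 read 2.58 times array 2. The seed coat gene BAN was also higher in Col-0 array 1 than in Col-0 array 2, by the widest log2 step of the tissue markers. So were the other markers by smaller amounts, apart from AT5G07230, which read 2002 and 2668 in Col-0 arrays 1 and 2. The part of these cells in the FSD1 values was not tested. Leaving out Col-0 array 2 gave a log2 difference of 2.43, and leaving out Col-0 array 1 gave 3.72.

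**Figure D1:**
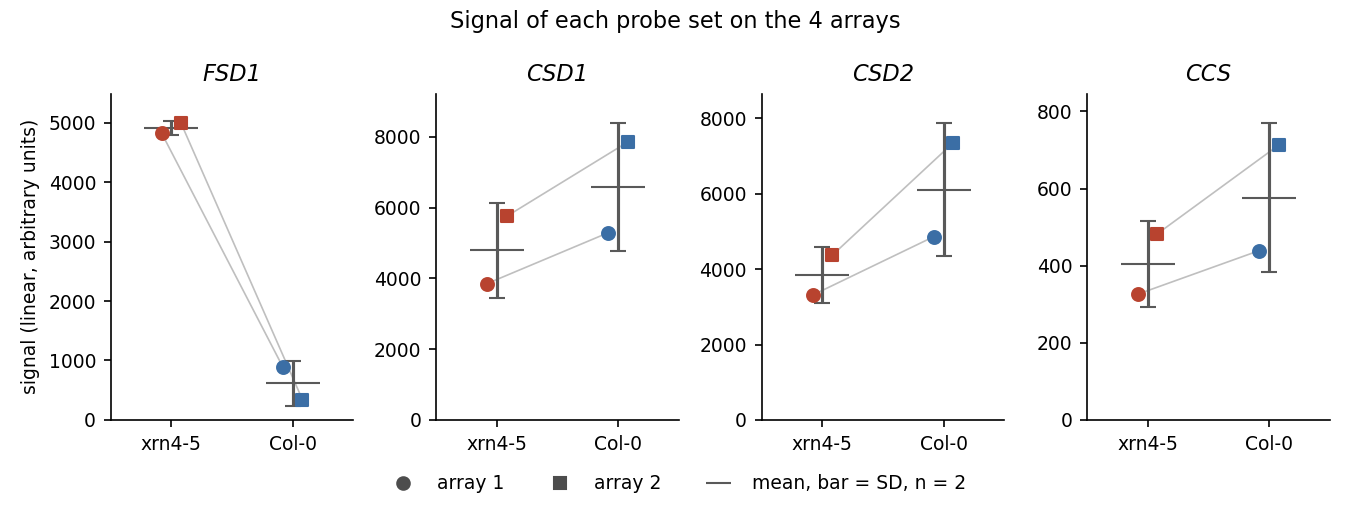
Signal (linear scale, arbitrary units) of FSD1, CSD1, CSD2 and CCS on each array of xrn4-5 (red, left) and Col-0 (blue, right); circles are arrays numbered 1, squares arrays numbered 2, grey lines join same-numbered arrays, and horizontal marks with bars give the mean and SD (n = 2). FSD1 lies at 4824 and 4991 in xrn4-5, above 887 and 344 in Col-0, and each line of the other 3 genes runs lower at its xrn4-5 end.

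CSD2, the chloroplast copper/zinc enzyme, had signals of 3309.5 and 4359.6 in xrn4-5 arrays 1 and 2, against 4859.8 and 7350.2 in Col-0 arrays 1 and 2. The genotypes did not overlap, although the gap between the nearest arrays was small beside the spread within Col-0. CSD2 averaged 3835 ± 743 in xrn4-5 and 6105 ± 1761 in Col-0 (SD, n = 2 each), a log2 difference of -0.65, or 1.57-fold higher in Col-0. Leaving out xrn4-5 array 1 gave -0.45 and leaving out Col-0 array 2 gave -0.35.

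For CSD1, the cytosolic copper/zinc enzyme, signals were 3854 and 5752 in xrn4-5 arrays 1 and 2, against 5293 and 7856 in Col-0 arrays 1 and 2. Here the genotypes overlapped, since xrn4-5 array 2 read above Col-0 array 1. The means were 4803 ± 1342 in xrn4-5 and 6575 ± 1812 in Col-0 (SD, n = 2 each), a log2 difference of -0.45. The difference between the means was smaller than the SD of the Col-0 arrays. The log2 difference was -0.16 without xrn4-5 array 1 and -0.17 without Col-0 array 2.

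CCS, the chaperone that delivers copper to these enzymes, read 326 and 483 in xrn4-5 arrays 1 and 2, against 439 and 713 in Col-0 arrays 1 and 2. Its genotypes overlapped in the same way, with xrn4-5 array 2 above Col-0 array 1. CCS averaged 405 ± 111 in xrn4-5 and 576 ± 193 in Col-0 (SD, n = 2 each), a log2 difference of -0.46. As for CSD1, the means differed by less than the SD of the Col-0 arrays. The log2 difference was -0.20 without xrn4-5 array 1 and -0.13 without Col-0 array 2.

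In 2 of the 4 genes the arrays of the genotypes did not overlap, as in 41.4% of all 13648 tested probe sets. FSD1 was higher in this way, as were 22.8% of tested probe sets, and CSD2 was lower, as were 18.6%. The limma test over all these probe sets, adjusted by the Benjamini-Hochberg method, called 1 probe set, or 0.00733%. None of the 4 genes was that probe set, and 2 of the 4 had an unadjusted limma p under 0.05, as had 9.33% of all tested probe sets. Since the genes were chosen on this contrast, these counts say nothing in either direction about them. FSD1 had the highest log2 difference of all tested probe sets, and it is 1 of 2 (0.0147%) that were higher in both same-numbered pairs by at least its own smaller pair difference of 2.40. For comparison, 33.2% of tested probe sets were higher in xrn4-5 in both pairs by any amount. The differences of CSD2, CCS and CSD1 were matched or exceeded downwards by 1.28%, 3.23% and 3.48% of tested probe sets. This rank and these shares likewise come from the contrast on which the genes were chosen, so they are a description and not a test.

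Set side by side by array number, the 3 copper genes (CSD1, CSD2 and CCS) were lower in xrn4-5 in every pair. CSD1 in xrn4-5 was 0.728 of its Col-0 signal in the arrays numbered 1 and 0.732 in those numbered 2. For CSD2 these ratios were 0.681 and 0.593, and for CCS they were 0.743 and 0.678. All 6 ratios lay below 1. Among tested probe sets, 28.6% were lower in xrn4-5 in both pairs by any amount. For the copper genes the log2 difference nearest to 0 was -0.40. A difference of at least this size downwards in both pairs was seen in 259 of 13648 tested probe sets, or 1.9%, these 3 included. The cutoff was set by the 3 genes, which were chosen on this contrast, so this share is no test of them. The authors' own table makes the same pairing, and the labels do not say what an array number stands for.

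The spread within each genotype followed the array number in these 3 genes. Array 2 read above array 1 by 1.49 times in xrn4-5 and 1.48 times in Col-0 for CSD1, by 1.32 and 1.51 times for CSD2, and by 1.48 and 1.62 times for CCS. The step between array numbers was thus about as large as the step between genotypes. FSD1 did not share it: array 2 was 1.03 times array 1 in xrn4-5 and 0.388 times array 1 in Col-0. Over all tested probe sets, 2.48% read higher in array 2 of both genotypes by at least the smallest such step of the copper genes, a log2 difference of 0.39. Both conditions together, lower in xrn4-5 in each pair and higher in array 2 of each genotype by these sizes, were met by 20 probe sets, or 0.147%, these 3 included. Because both sizes were taken from the 3 genes, they meet them by construction, and the shares describe them without testing them.

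**Figure D2:**
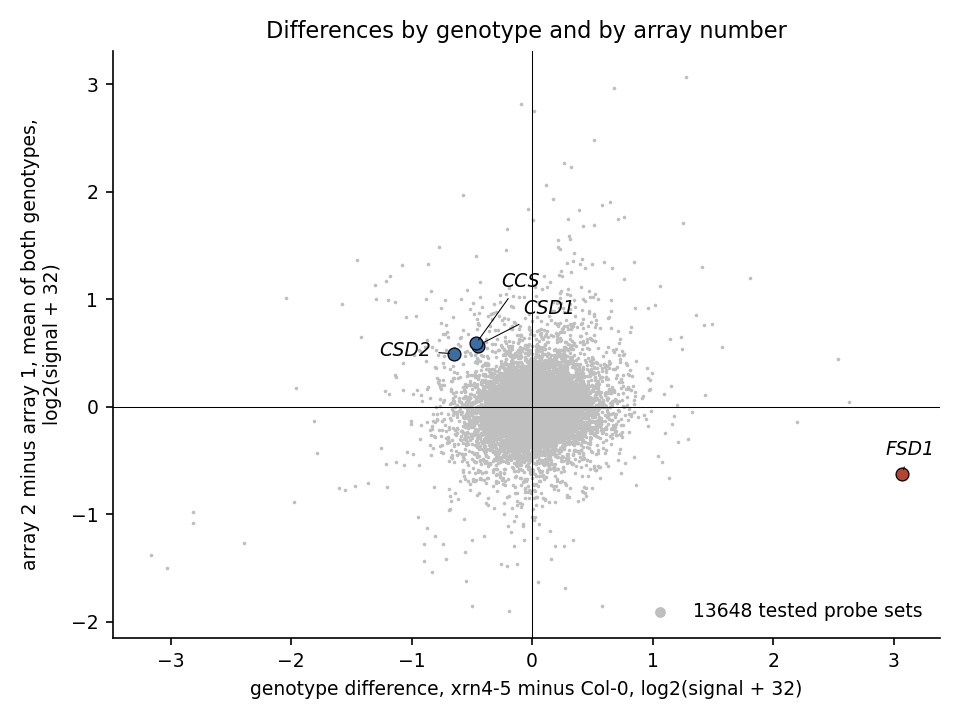
Each point is a tested probe set, with the difference between genotypes (xrn4-5 minus Col-0) on the horizontal axis and the difference between array numbers (array 2 minus array 1, mean over both genotypes) on the vertical axis, both in log2(signal + 32). FSD1 (red) lies farthest to the right, at 3.07 on the horizontal axis, and CSD1, CSD2 and CCS (blue) lie close together at -0.45, -0.65 and -0.46.

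CSD1, CSD2 and CCS varied alike over the 4 arrays. With each gene's log2 values centred on its own mean, the root mean square difference between CSD1 and CCS was 0.04, that between CCS and CSD2 was 0.11 and that between CSD1 and CSD2 was 0.12. Between FSD1 and each of the 3 it lay from 1.89 to 1.98. Some other genes lay near the mean pattern of the 3. Of 7233 other tested genes with a named probe set, 86 lay within 0.2 of it, and 3 within 0.1. The limit of 0.2 is wider than the differences between the 3 themselves, which reached 0.12. The 4 values behind each figure come from the same arrays and share their scaling, and no test was made of them.

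Within each array, the log2 value of FSD1 minus the mean log2 value of the 3 copper genes gives a balance between them, set here to 0 at the Col-0 mean. This balance stood at 3.82 and 3.37 in xrn4-5 arrays 1 and 2, against 0.95 and -0.95 in Col-0 arrays 1 and 2. The genotypes did not overlap, with means of 3.59 ± 0.32 in xrn4-5 and 0.00 ± 1.34 in Col-0 (SD, n = 2 each). As the genes were picked for this opposite course, a gap in this direction was selected for and is no test. Most of the difference came from FSD1, which contributed 3.07 of the 3.59, and Col-0 array 2, with the lowest FSD1 and the highest copper genes, lay at the far end. In this balance, signals of different probe sets were not set against each other as levels.

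In the authors' deposited table, made of log2 ratios, xrn4-5 over Col-0, of same-numbered arrays, FSD1 had 2.4 and 3.9. The authors' deposited table gives CSD2 ratios of -0.6 and -0.7, and CSD1 ratios of -0.4 in both pairs. For CCS the authors' deposited table has -0.8 in both pairs, farther from 0 than the log2 ratios of the deposited signals themselves, which were -0.43 and -0.56. For FSD1 the signals gave 2.44 and 3.86, for CSD2 -0.55 and -0.75, and for CSD1 -0.46 and -0.45, all within rounding or close to the authors' values.

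The authors' change p-value, which approaches 0 where xrn4-5 is higher and 1 where it is lower, stood at its lowest value of 2e-05 in both pairs for FSD1, in the authors' deposited table. It reached that value in both pairs for 65 of 22746 probe sets, or 0.286%, in the authors' deposited table. CSD1, CSD2 and CCS all had the highest value, 0.99998, in both pairs of the authors' deposited table, as had 67 probe sets, or 0.295%. This p-value compares one array with one other and does not take in the spread between arrays of a genotype.

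Other genes were listed by function, namely genes of related pathways and the tissue markers above. Few of them have a named probe set here: 21 of 104 genes, of which 19 were bright enough to be tested, the 8 markers included. In limma's test with adjustment over all probe sets 0 of the 19 passed in either direction. An unadjusted limma p under 0.05 was seen for 4 of the 19, all pathway genes, as for 9.33% of all tested probe sets. The median log2 difference of the 19, markers included, was -0.15, beside 0.01 over all tested probe sets.

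Of the other superoxide dismutases, 1 of 5 has a named probe set. AT3G56350, which encodes a manganese enzyme, gave 56.1 and 29.0 in xrn4-5 tissue, against 57.6 and 48.6 in Col-0 tissue, too dim for the test. Levels of the plastid iron enzymes FSD2 and FSD3, the peroxisomal CSD3 and the mitochondrial MSD1 were not analysed here. Whether FSD1 stood apart from the rest of its family is therefore not known from these values.

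The copper list held 29 genes of copper uptake and delivery and targets of copper-responsive microRNAs, and 2 were measured. ARPN, a plantacyanin and a target of miR408, another microRNA of low copper, gave 1451 and 1290.4 in xrn4-5 tissue, against 1747 and 2755 in Col-0 tissue. Both xrn4-5 arrays lay below both Col-0 arrays, with a log2 difference of -0.67 (limma unadjusted p = 0.0264, adjusted p = 0.491). AT3G15640, entered in the list as a cytochrome c oxidase subunit gene that is a further target of miR398, read 1907 and 2406 in xrn4-5 tissue, against 2041 and 2391 in Col-0 tissue. Its genotypes overlapped, and its log2 difference was -0.04 (limma adjusted p = 0.951). SPL7, the copper transporters and the other copper chaperones of the list were not analysed here.

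Among 28 genes that remove hydrogen peroxide, the product of superoxide dismutases, 6 were tested, 2 with higher and 4 with lower estimates, and 0 passed, with 1 at an unadjusted limma p under 0.05. SAPX, a stromal ascorbate peroxidase of the chloroplast, was the widest apart, at 1077 and 1683.5 in xrn4-5 tissue, against 468 and 647 in Col-0 tissue. Both xrn4-5 arrays were above both Col-0 arrays, with a log2 difference of 1.24 (limma unadjusted p = 0.00311, adjusted p = 0.391). TAPX, the ascorbate peroxidase of the thylakoid membrane, gave 850 and 757 in xrn4-5 tissue, against 842 and 1005 in Col-0 tissue, a log2 difference of -0.19. AT3G11630, a peroxiredoxin gene of the list, gave 7868 and 7885 in xrn4-5 tissue, against 8211 and 9005 in Col-0 tissue, a log2 difference of -0.13. GR1, a glutathione reductase, had a log2 difference of -0.16 with overlapping arrays. The limma adjusted p-values of these last 3 genes lay between 0.725 and 0.849.

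FSD1 carries iron, and 3 of 16 listed iron genes were measured, all lower in both xrn4-5 arrays than in both Col-0 arrays, as were 18.6% of all tested probe sets. AT1G47400 gave 2335 and 290 in xrn4-5 tissue, against 7418 and 6770 in Col-0 tissue (log2 difference -3.03, limma unadjusted p = 0.0133, adjusted p = 0.450). PYE, a regulator of the iron deficiency response, gave 320 and 224 in xrn4-5 tissue, against 746 and 471 in Col-0 tissue (log2 difference -1.06, limma adjusted p = 0.398). BHLH101, a transcription factor induced by low iron, gave 16.2 and 43.0 in xrn4-5 tissue, against 193 and 129 in Col-0 tissue, too dim for the test. Neither tested iron gene passed, and both had an unadjusted limma p under 0.05. SE, the only measured gene of the list of exoribonucleases and microRNA factors, differed by -0.09 on the log2 scale with overlapping arrays (limma adjusted p = 0.886).

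**Figure D3:**
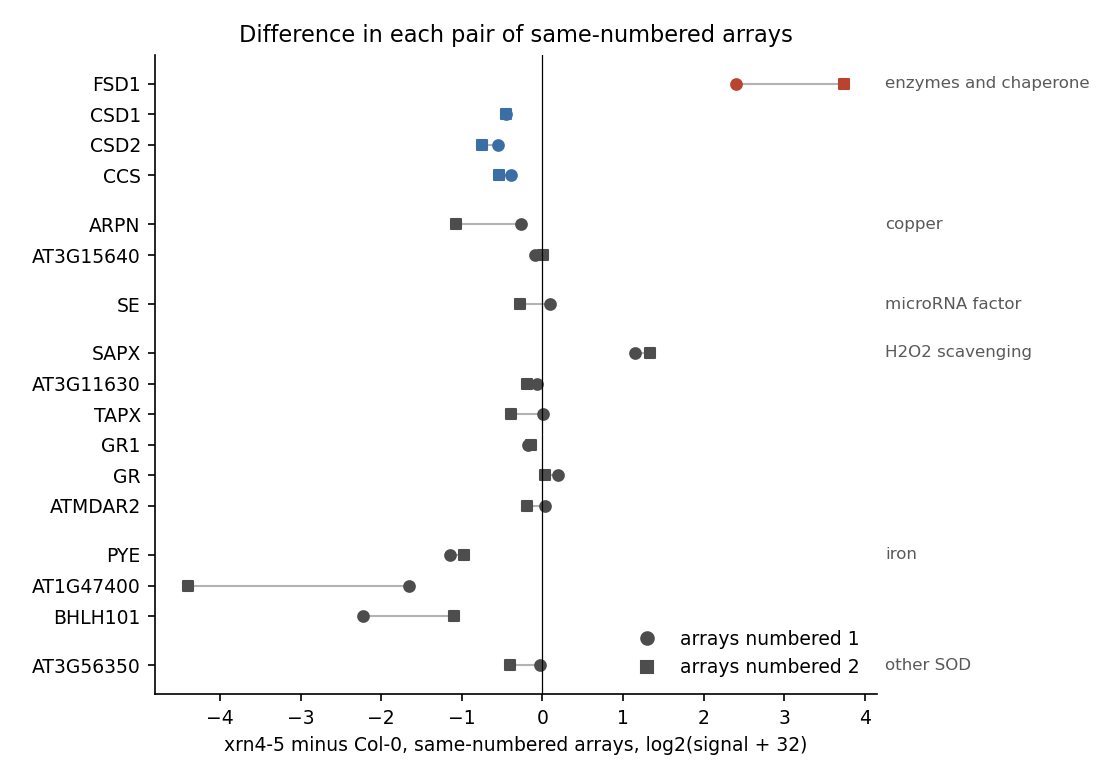
Difference between xrn4-5 and Col-0 in log2(signal + 32) for the arrays numbered 1 (circles) and numbered 2 (squares), for FSD1 (red), CSD1, CSD2 and CCS (blue) and the measured genes of the copper, microRNA, hydrogen peroxide, iron and superoxide dismutase (SOD) lists (grey). FSD1 is at 2.40 and 3.74, and the 3 copper genes are below 0 in both pairs, while SAPX is above 0 and the iron genes below 0 in both.

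The pattern of FSD1 over the 4 arrays was compared with that of 7233 tested genes, each centred on its own mean log2 value. The closest named genes were AT2G25250, AT3G53980, AT1G68490, AT1G20070 and AT1G01250, the last an AP2/ERF transcription factor gene. Their root mean square differences from FSD1 lay between 0.97 and 1.06, so even the nearest was not close. AT2G25250 gave 1029.5 and 1003 in xrn4-5 tissue, against 393 and 377 in Col-0 tissue, a log2 difference of 1.33, and the other 4 differed by 1.08 to 1.44. All 5 were higher in xrn4-5, and none matched the size of the FSD1 step. They were picked for closeness to a pattern in which this step is the largest part, so sharing its direction is no test. A nearer probe set, ATH1.251109_at, has no named gene here and is given after its values were seen: it gave 4838 and 5704 in xrn4-5 tissue, against 869 and 778 in Col-0 tissue, with a root mean square difference of 0.46. It is the 1 probe set that the limma test called (adjusted p = 0.0255). No probe set was called as higher in xrn4-5 when dim probe sets were kept, with no trend in the variance prior, or without either xrn4-5 array, so this call ended there.

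The mean pattern of CSD1, CSD2 and CCS was compared with the same genes in the same way. The nearest were AT1G03660, AT4G20830, AT5G02580, THIC, an enzyme of thiamine synthesis, and AGL26, at 0.03 to 0.12. THIC, for example, gave 1183 and 1781.5 in xrn4-5 tissue, against 1404 and 2273.5 in Col-0 tissue. Like the copper genes, it was lower in xrn4-5 within each pair and higher in array 2 of each genotype. As THIC was picked for closeness to their pattern, this likeness is a description and not a test.

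**Figure D4:**
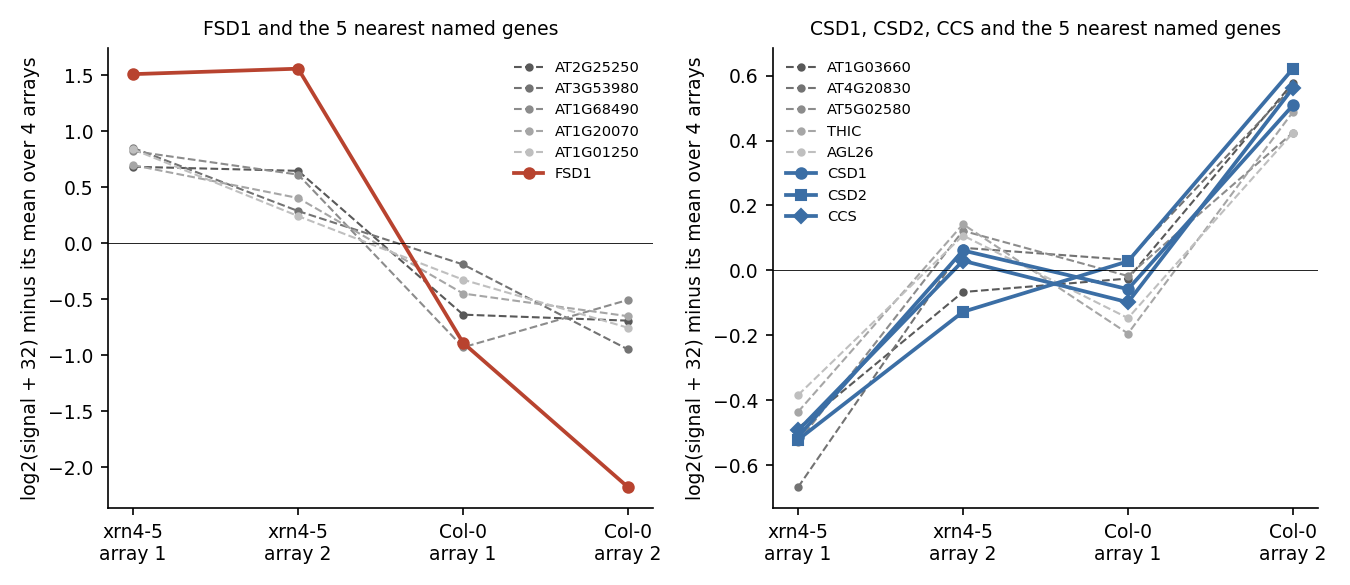
Log2(signal + 32) of each gene minus its own mean over the 4 arrays, for FSD1 (left, red) and for CSD1, CSD2 and CCS (right, blue), each with the 5 named genes of the most similar pattern (dashed grey); the vertical scales differ. The genes nearest to FSD1 share the direction of its step between genotypes at less than its size, with root mean square differences of 0.97 to 1.06. Within Col-0 they vary: from array 1 to array 2 FSD1 changed by -1.29, AT3G53980 by -0.76 and AT1G68490 by 0.42. The genes nearest to the copper genes follow them at 0.03 to 0.12.

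The arrays measured the RNA that each probe set binds. Full-length transcripts and fragments left by cleavage cannot be told apart in these values, and the levels of miR398 were not analysed here.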

How the data were processed

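Total RNA (15 µg) was labelled with biotin and hybridized to Affymetrix ATH1 arrays, per the labels' protocols. The deposited value table holds a linear signal intensity per probe set and array, made with GCOS per the submitters' processing notes (no version given). The 2% trimmed mean was 500.04 in each array, so the authors had scaled them together. The authors' deposited table gives a log2 ratio and a change p-value per same-numbered pair, per the file headers. The sources used here do not say how that p-value was obtained.

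Tests were run on log2(value + 32), without normalizing the arrays again. After removal of 64 control probe sets and of the dimmest 40% by mean log2 value, 13648 were tested. Genotypes were compared in limma 3.58.1 (R 4.3.3; lmFit, then eBayes with a trend), on 2 residual and 3.73 prior degrees of freedom and Benjamini-Hochberg adjustment at 0.05. The fit was tested on simulated data. Figures used matplotlib 3.10.9 in Python 3.11.15. All 4 genes passed the filter on dim probe sets.

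The 4 genes, the gene lists and the tests were chosen with earlier results of these data known. Named genes were the 4 themselves, up to 4 tested genes of each list with the smallest p and any that passed, and the 5 named genes nearest in pattern to FSD1 and to the mean of the other 3. Outside this rule, and after their values were seen, the text also names AT3G56350 and BHLH101, too dim for the test, the markers AMS, RCA, PRK and BAN, and the unnamed probe set nearest to FSD1. Of probe sets other than controls, 13513 have 1 gene in the platform annotation, 503 have several and 8730 are not listed, and 13436 of those with 1 gene matched the TAIR10.1 names. The pair of arrays of a genotype shared few identical values (47 of 22810 for xrn4-5 and 46 for Col-0) and each was counted as its own sample. Whether they came from separate plants is not in the labels, and p-values therefore reflect the spread among samples that may differ only technically. The number of arrays limits the precision. Alternatives changed the pseudocount, the dim filter, the scaling between arrays, the trend in the variance prior, a term for array number, and the set of arrays.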

Additional observations from a re-analysis of the deposited data

How the results depend on the processing

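The direction of FSD1, CSD1, CSD2 and CCS was the same with pseudocounts of 16 and 64, with quantile normalization, with median centring, with the replicate block and without each array in turn. Without single arrays the log2 difference ranged from 2.43 to 3.72 for FSD1, from -0.95 to -0.35 for CSD2, from -0.74 to -0.16 for CSD1 and from -0.79 to -0.13 for CCS. For FSD1 it was 2.40 in the arrays numbered 1 and 3.74 in those numbered 2, a split added after seeing the data. The count of 1 probe set called higher was 0 when dim probe sets were kept and 0 with no trend in the variance prior, and without single arrays the count ranged from 0 to 3 higher and from 0 to 8 lower. With the replicate block, the array number as a term, 71 probe sets were called higher and 60 lower, FSD1 and CSD2 among them, and of the listed genes 1 was called higher (SAPX) and 2 lower (PYE and AT1G47400). Arrays with the same number deviated together from their genotype means (r = 0.42 across tested probe sets), but no label ties a number to a common batch. FSD1 was also called when one or the other Col-0 array was left out, on the assumption that the lone array varies as the pair does. The cause of these moves was not tested, except that leaving out arrays or adding probe sets changes how many enter the test.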
